A study of Mus musculus with 6 samples.

Results

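The genes described here encode the building blocks of microtubules and proteins that bind tubulin in cultured mouse muscle satellite cells (MuSCs). They are 3 alpha tubulins (*Tuba1a*, *Tuba1b* and *Tuba1c*), 3 beta tubulins (*Tubb5*, *Tubb6* and *Tubb4b*), stathmin (*Stmn1*), 2 collapsin response mediator proteins (*Dpysl2* and *Dpysl3*) and the tubulin polymerisation promoting protein *Tppp3*. These 10 genes, of 20654 in the count table, were chosen by symbol with their earlier fold changes between *Piezo1* cKO and wild type in view. The differences between genotypes given for them are therefore a description, and where edgeR's calls are noted for them nothing is read from those calls.

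RNA-seq had been performed on MuSCs to ask which genes change when the mechanosensitive calcium channel PIEZO1 is lost from these stem cells. MuSCs were sorted from C57BL/6 mice, cultured for 3 d in growth medium with 30% foetal bovine serum and 10 ng/ml basic fibroblast growth factor, and collected as bulk RNA, giving 3 libraries per genotype. Per the study's methods, the cKO mice were *Piezo1* flox/flox; *Pax7* CreERT2/+, so that Cre is restricted to cells expressing *Pax7* and acts only with tamoxifen. The methods do not give the genotype of the control mice of this experiment, and a caption of the same data names it as *Pax7* CreERT2/+. For work on isolated cells the mice were injected with tamoxifen before isolation, the growth medium of both genotypes also contained 1 µM 4-hydroxytamoxifen, and no age of the animals is given in the sources used here. The labels call the control libraries wild type and do not say whether the 3 libraries of a group came from separate animals, so the spread between them may be technical. In bulk RNA, fewer cells of one type and less RNA per cell cannot be told apart.

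Microtubules are hollow polymers of alpha and beta tubulin dimers. In dividing cells they form the mitotic spindle, and when myoblasts differentiate and fuse the network is rearranged into arrays along the length of the cell. Cells hold several tubulin genes, called isotypes, whose proteins are nearly identical in the core and differ most in the acidic tail at the C-terminus. Cells also sense an excess of free tubulin dimers and then destroy tubulin mRNAs while they are being translated. TTC5 starts this by binding the first residues of the new chain as it leaves the ribosome.

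The coding starts are shown because they encode the residues that TTC5 reads. The first 4 codons are in capitals, and the sequences are from the GENCODE M21 transcripts of GRCm38.
Tuba1a: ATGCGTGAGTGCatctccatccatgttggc
Tuba1b: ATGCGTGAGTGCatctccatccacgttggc
Tuba1c: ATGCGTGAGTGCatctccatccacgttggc
Tubb5: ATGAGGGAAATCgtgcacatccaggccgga
Tubb4b: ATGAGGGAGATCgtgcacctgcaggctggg
The 12 bases in capitals were the same in the 3 alpha tubulins. Across those genes the coding sequences were 97.1% to 98.3% identical, whereas *Tubb5* and *Tubb4b* shared 82.3% of aligned coding bases.

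The coding ends of the beta tubulins are shown because they encode the tails in which isotypes differ. They are the last 60 coding bases before the stop codon in the last exon, with capitals where a base of *Tubb4b* differs from, or has no partner in, *Tubb5*.
Tubb5: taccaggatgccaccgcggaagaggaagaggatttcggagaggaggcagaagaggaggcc
Tubb4b: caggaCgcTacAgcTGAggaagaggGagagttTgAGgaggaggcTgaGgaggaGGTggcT
On GRCm38 these stretches lie at chr17:35834985-35835044 for *Tubb5* and chr2:25222311-25222370 for *Tubb4b*, both on the minus strand. *Tubb4b* had 16 of its 60 bases in capitals.

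The likeness of isotypes limits how well reads can be assigned, because the libraries count transcripts near the 3′ end. Of all 75-base stretches in the last 500 bases of the reference transcript, 53.8% for *Tuba1a*, 61.5% for *Tuba1b*, 66.2% for *Tuba1c* and 19.7% for *Tubb4b* also occurred in transcripts of other genes. For *Tubb5*, *Tubb6*, *Stmn1*, *Dpysl2*, *Dpysl3* and *Tppp3* the share was 0%. How reads that map to several places were treated is not stated, so the levels of the alpha tubulins and *Tubb4b* are uncertain.

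The libraries held between 726378 and 931168 UMI counts. A UMI marks 1 captured mRNA molecule whatever its length, so levels are given as CPM (counts brought to a common library size, with TMM scaling in edgeR) and compared between genes on that scale without dividing by length. The targeted gene, *Piezo1*, had 11, 5 and 6 counts in the wild type libraries and 7, 12 and 9 in those labelled *Piezo1* cKO, with a log2 fold change of 0.42 (SE 0.46). Counts near the 3′ end need not lie in the deleted part of the gene, so these values do not check the labels, and the direction of every difference given here is as the labels set it.

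Markers of the labelled cell type were present, at very different levels. All 9 genes of the satellite cell and myoblast list were tested, 5 with a log2 fold change above 0 and 4 below, with a median of 0.04. None was called by edgeR, DESeq2 or limma-voom, and 3 had an unadjusted p under 0.05 in edgeR, beside 11.9% of all genes tested. *Pax7*, which defines satellite cells, was at 21.9 ± 7.32 CPM (SD, n = 3) in wild type and 14.3 ± 6.98 CPM in cKO libraries, and the sort marker *Vcam1* at 140 ± 14.6 and 102 ± 15.5 CPM without overlap (edgeR adjusted p = 0.185). *Cdh15*, a cadherin of satellite cells and myoblasts, was at 105 ± 30.8 and 152 ± 12.4 CPM, also without overlap and in the other direction (edgeR adjusted p = 0.118). *Myod1*, the myoblast transcription factor, was at 1459 ± 103 CPM in wild type and 1310 ± 205 CPM in cKO libraries, and *Chrna1*, the most abundant gene of the satellite cell and myoblast list, was at 1684 ± 241 and 1475 ± 246 CPM. Markers of endothelium summed to 7.0 ± 6.73 and 9.2 ± 8.13 CPM, and those of blood cells to 17.0 ± 9.56 and 11.8 ± 2.41 CPM, with no gene of either list above the filter on low counts. The study's sort took cells positive for VCAM1 and negative for Sca1, CD31 and CD45, which removes fibro-adipogenic, endothelial and blood cells. The remaining genes of the satellite cell and myoblast list, *Myf5*, *Itga7*, *Des* and *Megf10*, overlapped between genotypes. Their log2 fold changes were 0.28, 0.04, 0.10 and 0.50. *Chrna1* apart, the genes of that list are named after their values were seen.

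A pair of libraries stood apart. In cKO replicate 2 the markers of differentiating muscle summed to 2089 CPM, against 704.7 and 1015 CPM in cKO replicates 1 and 3. They summed to 493, 166 and 394 CPM in wild type replicates 1, 2 and 3, so wild type replicate 2 was the least differentiated library by this measure. *Myog*, which encodes the transcription factor myogenin that starts terminal differentiation, had 203 counts in cKO replicate 2 and 3 counts in wild type replicate 2. It is named after its values were seen. Values with and without 1 of these libraries are given below for some of the genes they touch.

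In wild type libraries the order of levels was headed by *Tuba1b* at 1367 ± 108 CPM. *Tubb5* (881 ± 134 CPM) and *Tubb6* (855 ± 52.2 CPM) followed and lay within each other's spread, and so did the next pair, *Tuba1a* (732 ± 91.3 CPM) and *Tuba1c* (666.5 ± 111.8 CPM). *Tubb4b* was at 449.8 ± 41.1 CPM, *Dpysl3* at 348 ± 75.7 CPM, *Stmn1* at 284 ± 30.5 CPM and *Tppp3* at 136 ± 42.9 CPM. *Dpysl2* was lowest by far at 8.89 ± 5.48 CPM. In cKO libraries *Tuba1b* was again first, at 975 ± 237.5 CPM, but *Tuba1a* came next at 773 ± 55.1 CPM, and *Dpysl3*, at 556 ± 27.4 CPM, stood between *Tubb6* and *Tuba1c*. The means of *Tuba1b* and *Tuba1a* in cKO libraries lay within the spread of *Tuba1b*.

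**Figure D1:**
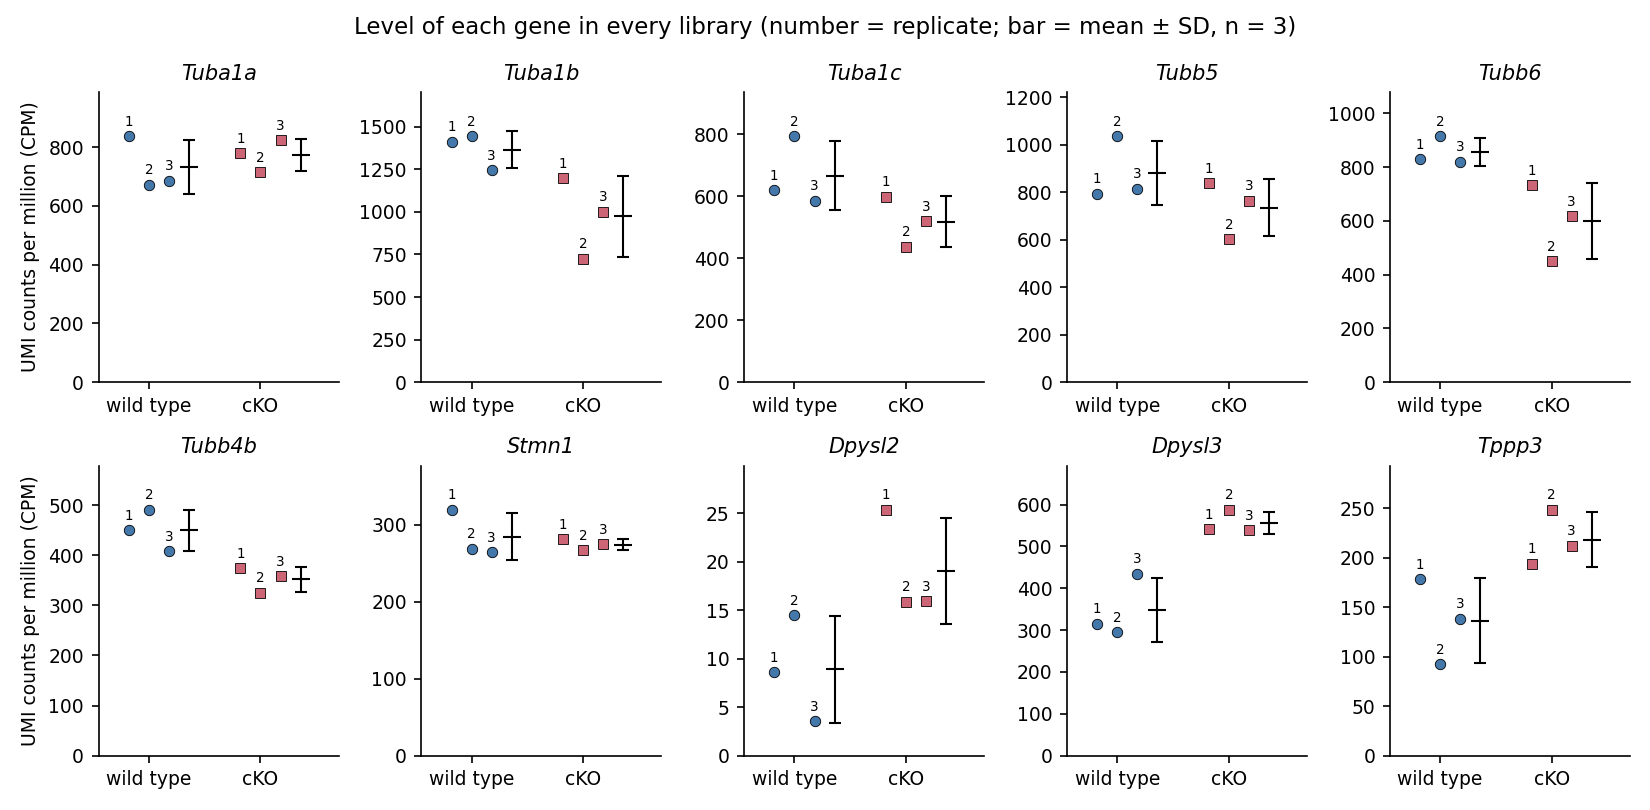
Each panel shows 1 gene, with its level in CPM on a linear vertical axis starting at 0. Points are single libraries with their replicate number (blue circles wild type, red squares labelled *Piezo1* cKO) and black bars are the mean ± SD of 3 libraries. *Tuba1b*, *Tubb6* and *Tubb4b* were lower and *Dpysl2*, *Dpysl3* and *Tppp3* higher in all 3 cKO libraries than in any wild type library, and the other 4 genes overlapped.

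By edgeR's quasi-likelihood test over 8551 genes (Benjamini-Hochberg adjusted p under 0.05), *Dpysl3* and *Tppp3* were called higher in cKO libraries, and none of the 10 genes was called lower. That is 2 of 10, beside 0.784% of all genes called, 0.468% higher and 0.316% lower. Levels did not overlap between genotypes for 6 of the 10, 3 higher and 3 lower, beside 16.5% of all genes tested, 8.2% higher and 8.31% lower. Since the genes were proposed from this comparison, nothing is read from these shares.

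Among the alpha tubulins, *Tuba1a* overlapped between genotypes while *Tuba1b* and *Tuba1c* had lower means in cKO libraries. The 3 genes lie together on chromosome 15 of GRCm38, *Tuba1b* at 98931425-98934565 and *Tuba1a* at 98949837-98953703 on the minus strand and *Tuba1c* at 99029891-99038110 on the plus strand. *Tuba1a*, a major isotype of young neurons, was at 837, 673 and 686 CPM in wild type replicates 1 to 3 and at 779.5, 714.5 and 824 CPM in cKO replicates 1 to 3. The groups overlapped, with a log2 fold change of 0.08 (SE 0.14), or 0.16 with total-count scaling and 0.27 with cyclic loess scaling, which adjusts each library along the whole range of levels. Leaving out 1 library gave 0.19 without wild type replicate 1, 0.03 without wild type replicate 2, 0.04 without wild type replicate 3, 0.07 without cKO replicate 1, 0.13 without cKO replicate 2 and 0.03 without cKO replicate 3.

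*Tuba1b*, an isotype found in most cell types, was at 1412, 1444 and 1243 CPM in wild type and at 1198, 725 and 1002 CPM in cKO libraries. All 3 cKO libraries lay below all 3 wild type libraries, and cKO replicate 2 lay far below the rest. The mean was 0.714 times that of wild type, with a log2 fold change of -0.49 (SE 0.15). Without cKO replicate 2 the log2 fold change was -0.32, and with cyclic loess -0.28. Without cKO replicate 1 it was -0.67, and edgeR then called *Tuba1b* lower.

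*Tuba1c*, the third isotype of this cluster, was at 619.8, 794 and 586 CPM in wild type and at 599.5, 437 and 519 CPM in cKO libraries. Wild type replicate 2 was the highest and cKO replicate 2 the lowest, and cKO replicate 1 lay above wild type replicate 3, so the groups overlapped. The log2 fold change was -0.36 (SE 0.14), -0.21 without wild type replicate 2 and -0.20 with cyclic loess.

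The 3 beta tubulins had lower means in cKO libraries, by different amounts. *Tubb5* (chromosome 17, 35833921-35838306, minus strand), the main beta isotype of many dividing cells, was at 794, 1035 and 814 CPM in wild type and at 836.5, 602 and 763 CPM in cKO libraries. Its groups overlapped, since cKO replicate 1 exceeded 2 of the wild type libraries, and the log2 fold change was -0.26 (SE 0.14). It was -0.14 without cKO replicate 2, -0.13 without wild type replicate 2 and -0.07 with cyclic loess.

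*Tubb6* (chromosome 18), a divergent beta isotype known to rise in regenerating and dystrophic muscle, was at 829.8, 915 and 819 CPM in wild type and at 733, 449 and 617 CPM in cKO libraries. No cKO library reached the lowest wild type library, and cKO replicate 2 was again the lowest. The mean in cKO libraries was 0.702 times that of wild type and the log2 fold change was -0.51 (SE 0.14), or -0.34 without cKO replicate 2. Without cKO replicate 1 it was -0.68, and edgeR then called *Tubb6* lower.

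*Tubb4b* (chromosome 2, 25222160-25224702, minus strand), a widely expressed isotype that is also abundant in ciliated cells, was at 450.1, 491 and 409 CPM in wild type and at 374, 325 and 358 CPM in cKO libraries. The groups did not overlap and the cKO libraries were close together. The log2 fold change was -0.35 (SE 0.13), -0.30 without cKO replicate 2 and -0.23 with cyclic loess.

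Summed over the 6 tubulins, the level was 4943, 5352 and 4557 CPM in wild type and 4519.9, 3253 and 4084 CPM in cKO libraries. The means were 4950.0 ± 398 and 3952 ± 644 CPM, a log2 ratio of -0.32. The highest cKO library was just below the lowest wild type library. Without cKO replicate 2 the log2 ratio was -0.20, and with cyclic loess scaling it was -0.14. The 6 log2 fold changes had a median of -0.36, beside 0.00 for all genes tested, with 5 of 6 below 0, where 50.2% of all genes tested were above 0.

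The library with the least tubulin RNA was also the one with the most RNA of differentiation genes. Of 15 markers of differentiating muscle, 9 were tested, and all 9 had a log2 fold change above 0, with a median of 2.01. Of these, 8 did not overlap between genotypes, beside 8.2% of all genes tested that were higher without overlap, and 6 had an unadjusted p under 0.05 in edgeR, beside 11.9% of all genes. Of the 9, *Tnnc1* and *Actc1* passed the filter on low counts only through the cKO libraries, so a difference was built in for them, and another 4 reached its cutoff in 2 wild type libraries and all 3 cKO libraries. None of the 9 was called by edgeR or limma-voom, while DESeq2 called *Acta1*, cyclic loess called *Tnnc1* and the replicate block called both. Both were also called by edgeR without cKO replicate 2, with a log2 fold change of 1.55 for *Acta1*. *Tnnc1*, a slow muscle troponin, and *Actc1*, cardiac actin, are named after their values were seen. *Acta1*, skeletal muscle actin and the most abundant of the list, was at 74.7 ± 17.1 CPM in wild type and 302 ± 151 CPM in cKO libraries (edgeR adjusted p = 0.241). The summed list was at 351 ± 168 and 1270 ± 727 CPM. Its part in the tubulin values was not tested.

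Proliferation markers stood the other way. All 10 of that list were tested and all 10 had a log2 fold change below 0, with a median of -0.27 and none called by edgeR, DESeq2 or limma-voom, while 4 had an unadjusted p under 0.05 in edgeR, beside 11.9% of all genes tested. Of the 10, 3 were lower without overlap, beside 8.31% of all genes, namely *Cdk1*, the kinase that drives entry into mitosis, *Pcna*, the sliding clamp of DNA replication, and *Mcm5*, a subunit of the replicative helicase, all named after their values were seen. The list summed to 2338, 2640 and 2456 CPM in wild type and to 2394, 1853 and 1980 CPM in cKO libraries, again lowest in cKO replicate 2. *Ccnb1*, cyclin B1 and its most abundant gene, was at 419 ± 0.995 and 373 ± 81.0 CPM. The part of this list in the tubulin values was not tested either.

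**Figure D2:**
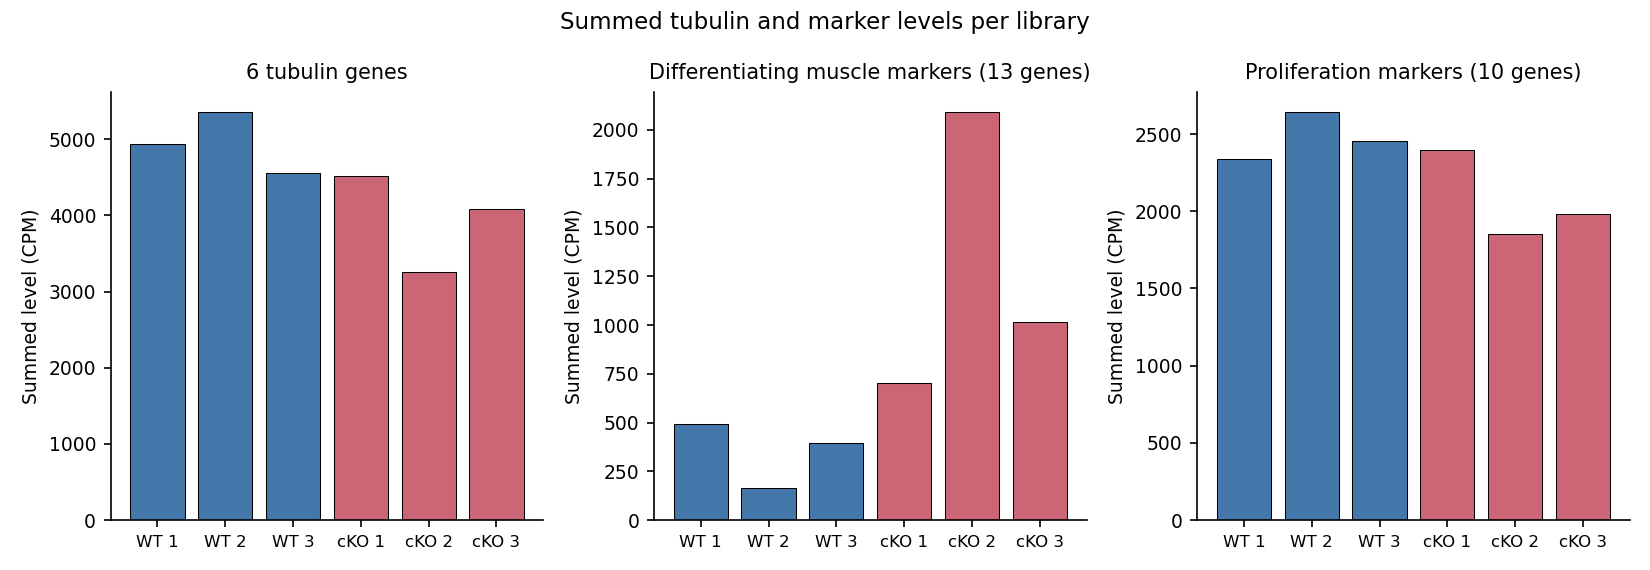
The bars give the summed CPM per library of the 6 tubulins, of 13 differentiating muscle markers and of 10 proliferation markers, with axes starting at 0 (blue wild type, red labelled *Piezo1* cKO). cKO replicate 2 had the lowest tubulin sum (3253 CPM), the lowest proliferation sum (1853 CPM) and the highest differentiation sum (2089 CPM), and wild type replicate 2 stood at the other end of all 3.

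The balance of the subunits overlapped between genotypes, while the shares of several isotypes did not. The ratio of all beta to all alpha tubulin counts was 0.787 ± 0.0415 in wild type and 0.784 ± 0.0163 in cKO libraries. *Tuba1a* made up 26.7%, 21.2% and 24.5% of alpha tubulin counts in wild type and 27.4%, 34.3% and 31.9% in cKO libraries. Every cKO library held a larger share than any wild type library, although cKO replicate 1 exceeded wild type replicate 1 by less than the width of their counting intervals.

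*Tuba1b* supplied 45.0%, 45.5% and 44.4% in wild type and 42.1%, 34.8% and 38.8% in cKO libraries. The wild type libraries were within 2 percentage points of each other, and the cKO libraries were spread over more. The ratio of *Tuba1a* to *Tuba1b* counts was 0.537 ± 0.0649 in wild type and 0.820 ± 0.167 in cKO libraries. *Tuba1c* (21.9% ± 2.77 and 20.7% ± 0.534) and *Tuba4a* (8.97% ± 1.01 and 9.47% ± 0.332) supplied nearly all the rest.

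Among beta tubulins, *Tubb6* supplied 35.8%, 35.3% and 36.3% in wild type and 32.7%, 27.0% and 31.2% in cKO libraries, lower in each. *Tubb2a*, a neuronal and muscle isotype, supplied 5.88% ± 1.85 and 9.34% ± 1.21, and *Tubb3*, best known as a neuronal marker, 1.13% ± 0.389 and 2.22% ± 0.762. *Tubb5* (36.7% ± 2.96 and 37.4% ± 1.17) and *Tubb4b* (18.8% ± 0.661 and 18.1% ± 1.41) differed by less than their spread. The 95% Wilson interval of a share of the 6 genes in 1 library reached at most 2.65 percentage points to either side. Without cKO replicate 2 the differences in share were 5.53 percentage points for *Tuba1a*, -4.54 for *Tuba1b* and -3.83 for *Tubb6*, against 7.08, -6.41 and -5.48 with all libraries. For *Tubb3* the difference was 0.653 without cKO replicate 2, against 1.09 with all libraries.

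**Figure D3:**
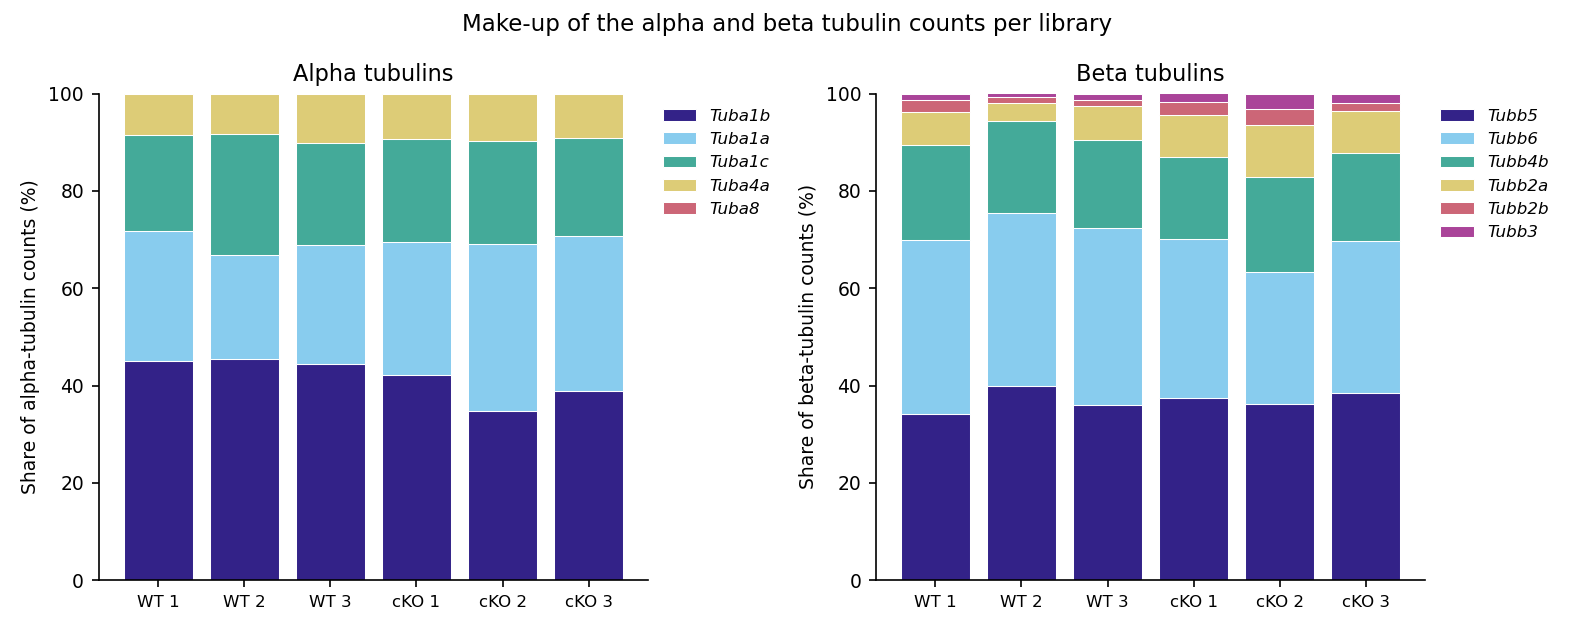
Stacked bars give the share of each isotype, in percent, among the alpha (left) and beta (right) tubulin counts of each library (WT, wild type; cKO, labelled *Piezo1* cKO). The *Tuba1a* segment was larger and the *Tuba1b* and *Tubb6* segments smaller in each cKO library than in any wild type library, with cKO replicate 2 farthest from wild type.

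*Stmn1* (chromosome 4, 134468320-134473843, plus strand) encodes stathmin, which binds free tubulin dimers and promotes microtubule shrinkage. It was at 319, 269 and 264 CPM in wild type and at 281, 267 and 274 CPM in cKO libraries. The cKO libraries lay inside the range of wild type, and stathmin varied less than any tubulin of the group among cKO libraries, with a coefficient of variation of 2.66%. Its log2 fold change of -0.05 (SE 0.14) turned positive with total-count scaling (0.03), with cyclic loess (0.04) and without wild type replicate 1 (0.04).

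The collapsin response mediator proteins bind tubulin dimers and help microtubules grow, and were first described in axons. *Dpysl2* (chromosome 14, 66802864-66868688, minus strand), also called CRMP2, had only 6, 13 and 3 counts in wild type and 20, 12 and 12 in cKO libraries. The groups did not overlap in CPM, 14.5 being the highest in wild type and 15.9 the lowest in cKO. It passed the filter on low counts only through the cKO libraries, so a difference was built in. Its log2 fold change of 1.07 had an SE of 0.41, and ranged from 0.68 without wild type replicate 3 to 1.68 without wild type replicate 2.

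*Dpysl3* (chromosome 18), also called CRMP4, was the more abundant of this pair by far. It was at 315, 294 and 434.5 CPM in wild type and at 541, 588 and 539 CPM in cKO libraries. The cKO libraries were close together, with a coefficient of variation of 4.93%, and all lay above the highest wild type library. The mean was 1.60 times that of wild type, a log2 fold change of 0.67 (SE 0.14). Removing single libraries moved this value between 0.57 and 0.87, and without cKO replicate 2 *Dpysl3* was no longer called, at a log2 fold change of 0.63.

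*Tppp3* (chromosome 8, 105467493-105471526, minus strand) encodes a small protein that bundles microtubules and also marks progenitor cells of tendon. It was at 178, 92.6 and 138 CPM in wild type and at 194, 248 and 212 CPM in cKO libraries. Wild type replicate 1 came close to cKO replicate 1, but the groups did not overlap. The mean was 1.62 times that of wild type and the log2 fold change 0.69 (SE 0.17). Of the 6 fits that each left out 1 library, *Tppp3* was called only without wild type replicate 1 (log2 fold change 0.92) or cKO replicate 1 (0.77). The others gave 0.48 without wild type replicate 2, 0.71 without wild type replicate 3, 0.59 without cKO replicate 2 and 0.71 without cKO replicate 3. The call was also lost with DESeq2, cyclic loess and the replicate block, at log2 fold changes of 0.67, 0.75 and 0.71. Beside it, *Scx*, the most abundant tendon marker, was at 196 ± 52.6 CPM in wild type and 215.5 ± 14.5 CPM in cKO libraries, and the summed tendon list at 203 ± 48.7 and 230.2 ± 13.5 CPM. The other tendon marker tested, *Mkx*, a transcription factor of tendon cells, had 2, 10 and 3 counts in wild type and 11 in each cKO library. It passed the filter only through the cKO libraries, so a difference was built in, and edgeR did not call it. *Tnmd*, the gene that defines mature tendon cells, had 1 count in 1 library and 0 in the others. *Mkx* and *Tnmd* are named after their values were seen. The part of tendon cells in the *Tppp3* values was not tested.

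Neuronal and glial markers bear on the same genes, since *Dpysl2*, *Dpysl3*, *Tuba1a* and *Tubb3* are abundant in neurons. Of the list of 10 Schwann cell and neuron markers only *Tubb3* passed the filter, at 26.6 ± 7.66 CPM in wild type and 42.2 ± 8.07 CPM in cKO libraries. *Sox10*, *S100b*, *Ngfr* and *Stmn2*, named after their values were seen, had between 0 and 5 counts per library. Smooth muscle and pericyte markers, another type with abundant cytoskeletal RNA, summed to 280 ± 190.5 and 471 ± 89.1 CPM, mainly *Acta2* at 235 ± 184 and 393 ± 92.3 CPM. The log2 fold change of *Acta2* was 0.74 (SE 0.67), 0.31 without wild type replicate 2 and 1.58 without wild type replicate 3. The other gene of that list that was tested, *Cspg4*, the proteoglycan NG2 of pericytes, was at 32.6 ± 6.73 and 54.4 ± 15.3 CPM without overlap (edgeR adjusted p = 0.143). *Rgs5*, a pericyte marker below the filter, had 0, 0 and 1 counts in wild type and 2, 4 and 6 in cKO libraries. *Pdgfrb* (6.49 ± 4.63 and 5.25 ± 3.53 CPM) and *Notch3* (5.68 ± 2.24 and 12.7 ± 4.44 CPM), also below the filter, overlapped between genotypes. *Myh11* had 1 count in 1 library and 0 in the others. *Cspg4*, *Rgs5*, *Pdgfrb*, *Notch3* and *Myh11* are named after their values were seen. Among fibroblast markers, *Dcn*, decorin of the extracellular matrix, was lower in cKO libraries (31.7 ± 10.4 against 6.91 ± 3.09 CPM, log2 fold change -2.17, edgeR adjusted p = 0.000387). It passed the filter only through the wild type libraries, so a difference was built in. *Col3a1*, the most abundant, was at 196 ± 66.2 and 262 ± 20.8 CPM. DESeq2 gave *Dcn* no adjusted p and called *Cd34*, a surface sialomucin, at 125 ± 59.8 and 42.1 ± 10.2 CPM without overlap (edgeR adjusted p = 0.181), and the replicate block also called *Col1a2*, a collagen I chain, at 48.1 ± 22.9 and 87.99 ± 23.7 CPM. Of the fibroblast list 4 genes were tested, 2 with a log2 fold change above 0 and 2 below. All 4 had an unadjusted p under 0.05 in edgeR, beside 11.9% of all genes. The list summed to 424 ± 111 and 420 ± 12.7 CPM. *Ly6a*, the gene of Sca1, was below the filter, with 2, 2 and 3 counts in wild type and 5, 8 and 9 in cKO libraries. *Cd34*, *Col1a2* and *Ly6a* are named after their values were seen, and no single gene of this list is taken as a sign of fibroblasts. The part of these cells in the values above was not tested.

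**Figure D4:**
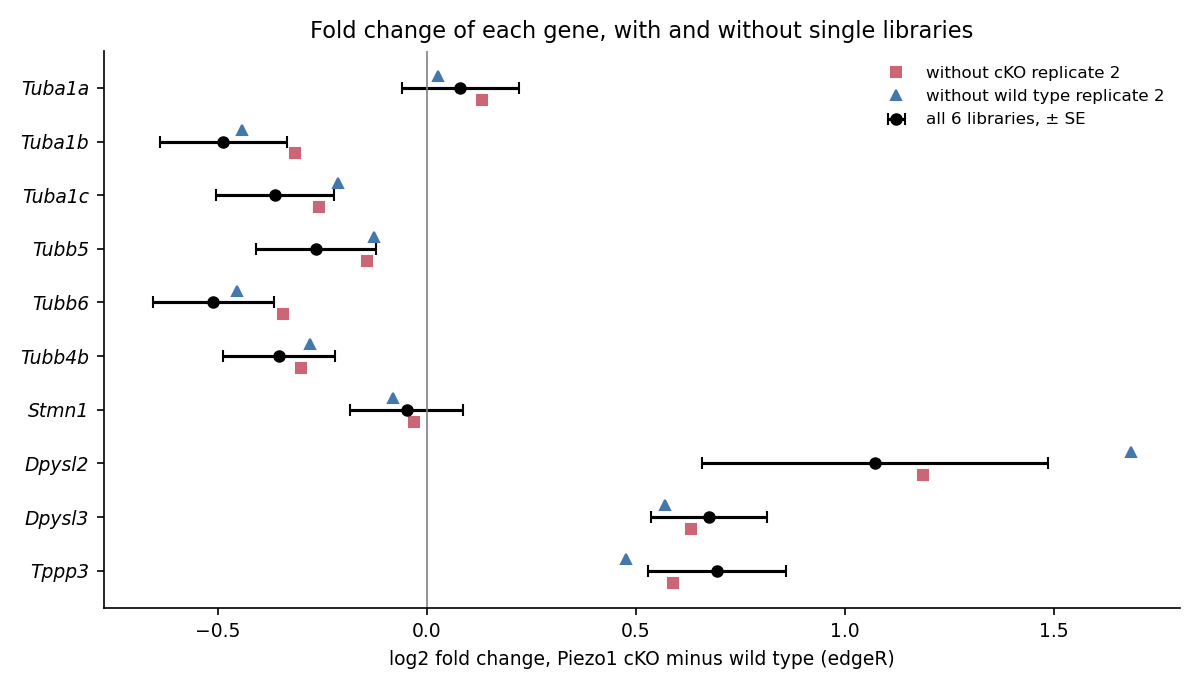
The horizontal axis is the log2 fold change (cKO minus wild type) from edgeR, and the vertical axis lists the 10 genes. Black circles with bars are all 6 libraries ± SE, red squares leave out cKO replicate 2 and blue triangles leave out wild type replicate 2. All 3 values of *Tuba1b*, *Tuba1c*, *Tubb5*, *Tubb6* and *Tubb4b* were below 0 and those of *Dpysl2*, *Dpysl3* and *Tppp3* above 0.

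The other genes of the microtubule system give the setting for these values. Lists of 196 further genes were set up by role, 184 were in the table and 128 were tested. None was called higher and 1 was called lower in cKO libraries by edgeR, beside 0.468% and 0.316% of all genes. DESeq2 called none, with no adjusted p given for the 1 gene called by edgeR, and 17 of the 128 (13.3%) had an unadjusted p under 0.05 in edgeR beside 11.9% of all genes. The median log2 fold change was 0.02, beside 0.00 for all genes tested.

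The called gene was *Prc1*, which cross-links antiparallel microtubules at the spindle midzone and is needed for cytokinesis. It was at 44.9 ± 7.24 CPM in wild type and 19.1 ± 3.49 CPM in cKO libraries, without overlap, with a log2 fold change of -1.21 (SE 0.28, edgeR adjusted p = 0.0114). Without wild type replicate 1, cKO replicate 2 or cKO replicate 3 the fold change stayed between -1.08 and -1.19 but *Prc1* was not called, with edgeR adjusted p of 0.0568, 0.178 and 0.109. The other 16 of 17 spindle genes tested were not called by edgeR with all libraries. *Aurkb*, the kinase of the chromosomal passenger complex, named after its values were seen, overlapped between genotypes (123 ± 18.8 and 90.9 ± 20.2 CPM, log2 fold change -0.44) and was called by edgeR only without cKO replicate 1, at -0.65. The 17 had a median log2 fold change of -0.22, and 13 were below 0. Of them 5 had an unadjusted p under 0.05 in edgeR, beside 11.9% of all genes, and 4 were lower without overlap, beside 8.31%. These included *Kif20b*, a kinesin of cytokinesis named after its values were seen, at 64.5 ± 2.77 and 41.7 ± 1.21 CPM (edgeR adjusted p = 0.176). The most abundant were *Racgap1*, a subunit of the centralspindlin complex of the midzone, at 186 ± 15.0 and 186 ± 39.3 CPM, *Tpx2*, a spindle assembly factor, at 181 ± 25.3 and 156 ± 20.9 CPM, and the kinase *Aurka* at 162 ± 18.6 and 163 ± 24.0 CPM.

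Of the other tubulin genes, 5 of 14 were tested and none was called by edgeR, DESeq2 or limma-voom, with 2 at an unadjusted p under 0.05 in edgeR. *Tubb2a* was at 138 ± 35.9 CPM in wild type and 181 ± 14.3 CPM in cKO libraries (log2 fold change 0.40, SE 0.16, edgeR adjusted p = 0.242), and its log2 fold change was 0.19 without wild type replicate 2. *Tuba4a*, an isotype of differentiated tissues, was at 271 ± 11.1 and 236 ± 31.4 CPM, and gamma tubulin *Tubg1*, which nucleates microtubules at the centrosome, at 141 ± 9.97 and 143 ± 9.85 CPM. The 5 log2 fold changes ran from -0.20 to 0.68, with 4 above 0 and 1 below, and their median of 0.40 was the value of *Tubb2a*. Of the other stathmin, CRMP and TPPP genes, none of the 6 in the table passed the filter, and they summed to 7.1 ± 3.64 and 7.9 ± 5.34 CPM.

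Genes that fold tubulin or degrade its mRNA had medians near that of all genes. Of 12 folding cofactors tested, none was called, with a median log2 fold change of 0.03. *Pfdn2*, a prefoldin subunit that hands new tubulin to the chaperonin, was at 308 ± 22.5 and 242 ± 17.97 CPM without overlap (edgeR adjusted p = 0.239). The cofactor *Tbca*, which binds beta tubulin, was at 258 ± 28.8 and 259.9 ± 28.7 CPM, and *Pfdn1* at 224 ± 25.0 and 189.6 ± 7.48 CPM. *Ttc5*, whose protein reads the coding starts shown above, was at 56.9 ± 1.94 and 57.8 ± 1.40 CPM. *Cnot11*, part of the deadenylase complex that TTC5 recruits, was at 67.4 ± 7.89 and 74.4 ± 20.9 CPM, so neither differed by more than its spread.

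Proteins that bind, cut and modify microtubules gave no calls by edgeR, DESeq2 or limma-voom. Of 27 microtubule-associated and tip proteins tested, 1 had an unadjusted p under 0.05 and the median log2 fold change was 0.09. *Mapre1*, or EB1, which tracks growing ends, was at 397 ± 29.1 and 389 ± 33.8 CPM, *Map7d1*, a cofactor of kinesin-1, at 317 ± 30.5 and 358 ± 32.5 CPM, and *Map1lc3b*, or LC3B of autophagosomes, at 274 ± 38.8 and 260.4 ± 5.21 CPM. Among 10 severing and depolymerising factors (median -0.05, 1 at an unadjusted p under 0.05), *Katnbl1*, a regulator of the severing enzyme katanin, was at 112 ± 8.96 and 149 ± 19.3 CPM without overlap (edgeR adjusted p = 0.241), the depolymerising kinesin *Kif2c* at 109 ± 14.7 and 98.5 ± 10.6 CPM and the ATPase *Fignl1* at 91.5 ± 15.5 and 76.8 ± 5.01 CPM.

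Among 12 tubulin-modifying enzymes (median 0.03, 2 at an unadjusted p under 0.05), *Svbp*, partner of the vasohibins that remove the last tyrosine of the alpha tubulin tail, was at 125 ± 14.6 and 155 ± 40.2 CPM. The tubulin deacetylase *Sirt2* was at 113 ± 19.1 and 107 ± 5.78 CPM, and *Ttll7*, which adds glutamates to beta tubulin tails, at 81.5 ± 9.70 and 86.7 ± 14.8 CPM. Those 3 overlapped between genotypes. The vasohibin *Vash2*, named after its values were seen, was at 51.1 ± 18.4 and 77.0 ± 7.002 CPM without overlap, with a log2 fold change of 0.62 (SE 0.21, edgeR adjusted p = 0.166). It was called by edgeR only when wild type replicate 1 was left out, at 0.88, and was at 0.37 without wild type replicate 2.

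Nucleation factors and motors gave no calls either, by the same 3 tools. The 17 genes of the gamma-tubulin ring and its partners had a median log2 fold change of -0.14, with 11 below 0 and 2 at an unadjusted p under 0.05. *Akap9*, which anchors the ring at the Golgi apparatus and centrosome, was at 100.5 ± 15.1 and 71.6 ± 20.1 CPM without overlap (edgeR adjusted p = 0.241), whereas the augmin subunits *Haus7* (82.6 ± 12.3 and 93.2 ± 12.1 CPM) and *Haus8* (83.7 ± 8.99 and 75.9 ± 11.2 CPM) overlapped. Among 8 transport kinesin genes (median 0.13, 1 at an unadjusted p under 0.05), *Kif5b*, the main kinesin-1 motor, was at 307 ± 34.0 and 314 ± 15.9 CPM, *Klc1*, its light chain, at 104 ± 8.62 and 130.3 ± 10.1 CPM without overlap, and the kinesin-2 motor *Kif3a* at 64.5 ± 8.53 and 75.5 ± 10.4 CPM. Among 18 dynein and dynactin genes (median 0.05, 2 at an unadjusted p under 0.05), the light chains *Dynll1* (734 ± 62.8 and 708 ± 73.7 CPM), *Dynlrb1* (414 ± 36.4 and 435 ± 13.3 CPM) and *Dynll2* (209 ± 10.1 and 202 ± 24.8 CPM) overlapped between genotypes. *Dync1h1*, the dynein heavy chain, named after its values were seen, also overlapped (81.9 ± 28.3 and 110.7 ± 19.0 CPM, log2 fold change 0.43) and was called by edgeR only without wild type replicate 3, at 0.76.

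**Figure D5:**
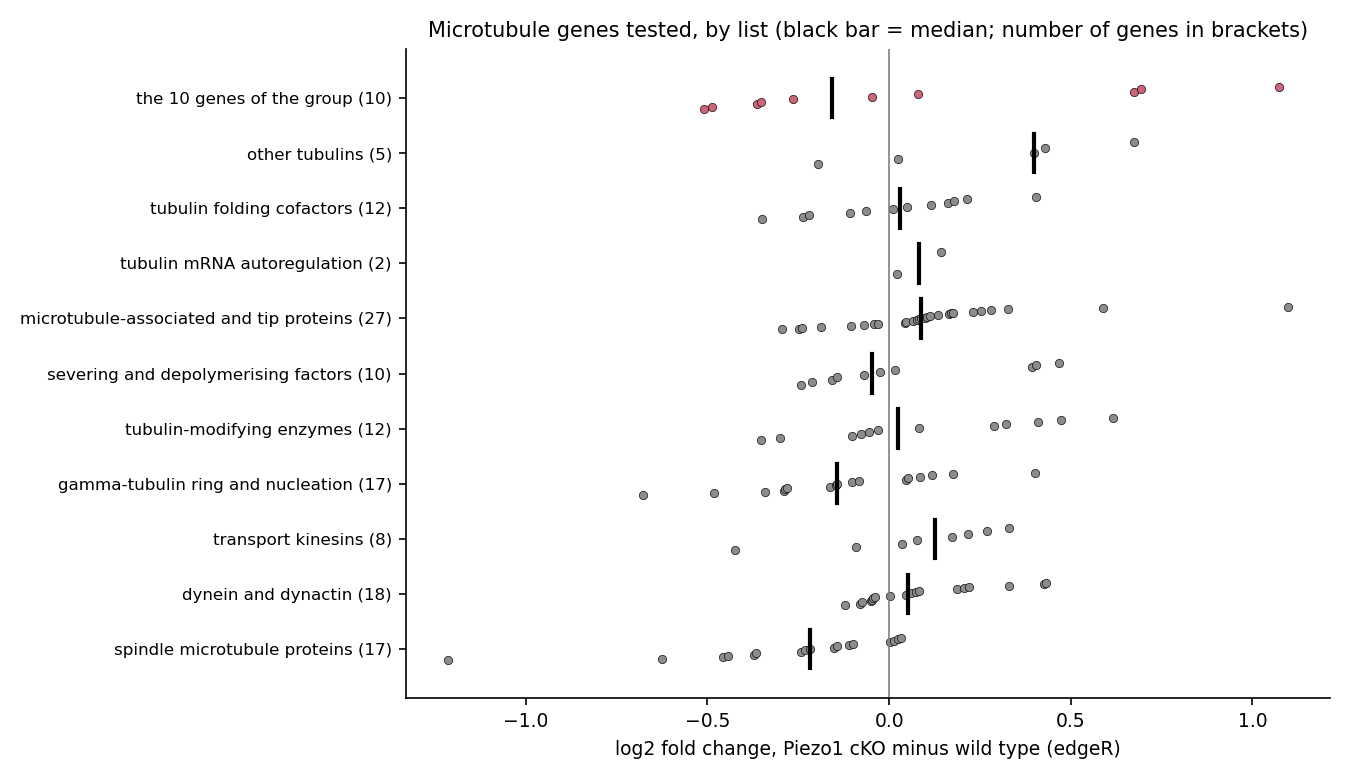
Each point is the edgeR log2 fold change (cKO minus wild type) of 1 gene, in rows for the 10 genes described here (red) and for 10 lists of other microtubule genes (grey), with the number of genes in brackets and black bars at the medians. The 10 genes fell into 5 values between -0.51 and -0.26, 2 close to 0 and 3 above 0.6. Their median was -0.156, within the range of the medians of the other lists (-0.22 to 0.40). Single grey points reached both below and above all 10 genes, and the lowest grey point, at -1.21, is *Prc1*.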

How the data were processed

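RNA-seq counts of 6 libraries were used, 3 wild type and 3 *Piezo1* cKO, grouped by the labels. From 500 pg of RNA per library, the authors made cDNA using oligo-dT primers that held a library barcode and a UMI, amplified it over 12 PCR cycles, mapped reads to GRCm38 with STAR 2.7.9a, assigned them with featureCounts 2.0.1 and counted UMIs with UMI-tools 1.1.1 (versions also in the submitters' processing notes). Settings for strand and for multi-mapping reads are not given in the sources used here. The deposited values are these counts per gene, not normalised.

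Counts were analysed in R 4.3.3 with edgeR 4.0.16 (TMM, filterByExpr with a minimum count of 10, robust quasi-likelihood, genotype as the only term, Benjamini-Hochberg adjustment over 8551 genes, called at an adjusted p under 0.05). *Piezo1*, below that filter, was added back for its own value. On simulated counts the fit recovered 68 of 100 changes of 2-fold and 93 of 100 changes of 4-fold, with 10 false calls among 171. The simulation gave every gene the same dispersion, so it does not show how often changes are recovered in these data. A gene with 3 counts has 3.22 to 4.13 CPM. Intervals cover counting error only. Within-group pairs of libraries differed by more than counting noise (chi-square per degree of freedom 1.64 to 2.61), so none was counted as a duplicate.

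The genes and lists were chosen with earlier results of these data known. Named are the 10 genes, *Piezo1*, every called gene and the 3 most abundant tested genes of each pathway list, and the called genes and the most abundant gene of each marker list. Other genes are marked as named after their values were seen. Positions and coding sequences are from GENCODE M21, with the transcript of each gene marked as principal and aligned globally. The plan was to compare proteins, and coding sequences were used in their place because no protein table was at hand. Alternatives were DESeq2 1.42.0, limma-voom (limma 3.58.1), DESeq2 size factors, total counts, cyclic loess with 3 iterations, no filter, at least 10 counts in every library, a replicate block, thinning to 726378 counts and leaving out each library. Some items of the lists and sequences are not reported here.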

Additional observations from a re-analysis of the deposited data

How the results depend on the processing

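Of 15 alternatives, none reversed the direction of *Dpysl3*, *Tppp3*, *Prc1* or *Dcn*. The directions of the other called genes were not compared across alternatives. With edgeR 67 genes were called (40 higher, 27 lower). DESeq2 called 27 (12 higher, 15 lower), cyclic loess 32 (17 higher, 15 lower) and no filter 129 (82 higher, 47 lower), and leaving out 1 library gave 6 to 174, with 6 without cKO replicate 2, 29 without cKO replicate 3, 105 without wild type replicate 1, 131 without wild type replicate 3 and 174 without cKO replicate 1. Total-count scaling gave 67 calls, 73.1% of them higher against 59.7%. Of the 10 genes, 2 were past the threshold, against 1 with DESeq2, cyclic loess or the replicate block (*Dpysl3*). The number was 3 with at least 10 counts in every library (with *Tubb6*) and 4 with no filter (with *Tuba1b* and *Tubb6*). Leaving out 1 library gave 0 to 4, with 0 without cKO replicate 2 and 4 without cKO replicate 1 (again with *Tuba1b* and *Tubb6*). Of the pathway genes 1 was called, against 0 with DESeq2, which gave *Prc1* no adjusted p, and 0 to 2 when 1 library was left out. Same-numbered libraries did not deviate together (correlations of -0.143, -0.203 and 0.0121), so the replicate number is not taken as a pairing. With the replicate block 46 genes were called, 36 of them among the 67. The summed tubulin log2 ratio of -0.32 ranged from -0.44 without cKO replicate 1 to -0.14 with cyclic loess, and the log2 fold changes of 9 of the 10 genes kept their sign under all alternatives that gave a value (*Stmn1* did not). The causes were not tested. A missing call does not show that a gene did not differ, most of all at the low counts of *Dpysl2*.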
